A study of Mus musculus with 7 samples.

Results

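A set of 35 genes of the cell cycle and of mitosis was followed in sorted mouse pancreatic alpha cells, with and without intact Nkx2-2. The set was defined by gene symbol and was chosen with earlier results of these data known. Its 35 members are 35 of the 55536 genes in the count table. It holds 6 genes of DNA replication, 4 cyclins of G1 and S phase, 3 inhibitors of cyclin-dependent kinases (CDKs) and 22 genes used in mitosis. Alpha cells are the glucagon-secreting cells of the pancreatic islet, and NKX2.2, encoded by Nkx2-2, is a homeodomain transcription factor of islet cells.

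The controls were 4 samples of genotype Nkx2.2+/+;Gcg-iCre;Rosa26:tdTomato and the knockouts (KO) were 3 samples of genotype Nkx2.2 fl/fl;Gcg-iCre;Rosa26:tdTomato, all from mice of strain C57BL/6J, as the design text has it. Every sample, controls included, thus carried a Cre recombinase driven from the glucagon gene, Gcg, and the red fluorescent reporter tdTomato, by whose fluorescence the cells were sorted from islets. In the KO samples both Nkx2-2 alleles carried the sites that Cre recombines, so any deletion was limited to cells that had made this Cre or came from cells that had. The labels give no age, sex or animal for a sample, so the p-values below measure the spread between these samples, which may be technical.

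Cells divide by passing through G1, S, G2 and mitosis, driven by CDKs that are switched on by cyclins and held back by CDK inhibitors. D-type and E-type cyclins act in G1, the MCM helicase and PCNA work at replication forks in S phase, and the A-type and B-type cyclins with CDK1 start mitosis, in which kinetochores, motors and aurora kinases separate the chromosomes. Adult alpha cells are known to divide rarely, and genes of the mitotic group are transcribed mainly in cells between S phase and mitosis, while D-type cyclins and CDK inhibitors are also expressed in resting cells.

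Total counts ran from 45483504 to 72456557 a library, with control 4 and 1 KO library as the 2 deepest. The column of this KO library carries the number 4, as that of control 4 does, but no KO title has this number (here the unnumbered KO library). The members took up between 1081 and 1392.5 CPM (counts scaled to a common library total) in each library. Counts are given below after division by DESeq2's size factors (normalized counts), always in the order control 1 to 4, then KO 1, KO 2 and the unnumbered KO library. Levels of different genes are ranked per kilobase of annotated exon. Sums of normalized counts over a list, and the parts of genes in them, are not divided by exon length, so long genes weigh more there. Of the genes with a count from 1 to 10, 84.4% to 88.9% had an even count, and halving all counts changed no member's call. Nkx2-2 itself had 8596 to 12297 normalized counts in the controls against 7534 to 7758 in KO, and its log2 fold change was -0.45 (DESeq2 adjusted p = 0.0218, edgeR adjusted p = 0.152). The counts cover the whole gene, and which part of Nkx2-2 recombination removes is not given in the sources used here. The alpha cell label held for its defining marker: Gcg was in the top percentile of protein-coding genes per exon kilobase, at 6164736.5 to 8050552.5 normalized counts in the controls. Ppy, Sst and Ins2, markers of gamma, delta and beta cells, were in the top percentile too, so this rank alone does not set alpha cells apart. Their control means per exon kilobase were 511419, 382371 and 272809, against 4714007 for Gcg. Gcg and Ttr, a further alpha cell marker, fell in KO. In bulk samples, fewer cells of a type and less RNA per cell cannot be told apart.

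A CDK inhibitor gene and a kinetochore gene rose in KO, and no member fell. Cdkn1a rose 2.47-fold and Cenpf 1.65-fold, so 2 of 35 members were higher at an adjusted p under 0.05 in DESeq2, where 2.24% of all 17571 genes tested were higher and 2.27% were lower. edgeR's quasi-likelihood test called Cdkn1a alone, against 0.404% of 19310 genes higher and 0.647% lower. At an unadjusted p under 0.05 in either direction, DESeq2 gave 7 of the 35 members (12.2% of all genes tested) and edgeR also gave 7 (10.5% of all genes tested). Ccnd2 and Cdkn1b, both with lower KO means, were among the 7 in each test. The log2 fold change lay above 0 for 27 of the 35, against 51.8% of all genes, and the members' median log2 fold change was 0.31, beside 0.01 over all genes tested. Scaled by library totals, all genes together had a median of 0.11 and the members one of 0.38, with 30 of the 35 above 0. All 3 KO libraries lay above all 4 controls for 5 members, Cdkn1a, Cenpf, Ccna2, Mcm5 and Bub1b, where 6.07% of all genes did so. For no member did all KO libraries lie below all controls, where 5.94% of all genes did.

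**Figure D1:**
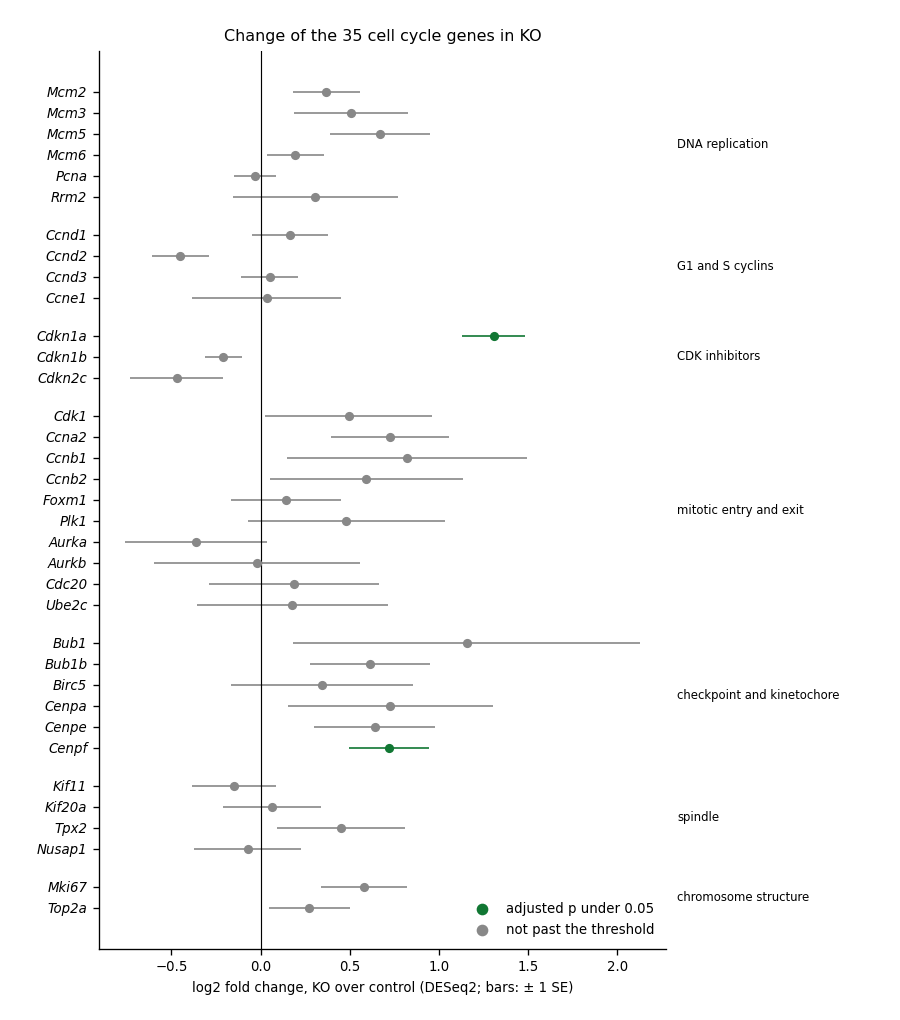
Log2 fold change (KO over control, DESeq2, horizontal axis) of the 35 members, 1 point a gene with bars of ± 1 SE, grouped by role. Cdkn1a at 1.31 and Cenpf at 0.72 are the 2 points past an adjusted p of 0.05, and most other points lie to the right of 0 with bars that reach or come near it.

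The 3 CDK inhibitors did not move alike. Cdkn1a encodes p21, which binds and stops cyclin-CDK complexes and is a textbook target of p53. Cdkn1a (ENSMUSG00000023067) lies at chr17:29090976-29100727 on the plus strand of GRCm38, per GENCODE M21. It had 867, 1375, 1099.5 and 1187 normalized counts in the controls and 2479, 3268 and 2659.6 in the KO libraries. The lowest KO library was 1.80 times the highest control, so the groups did not overlap. Against a control mean of 1132 ± 211 (SD, n = 4), the KO mean was 2802 ± 413 (SD, n = 3), and its log2 fold change was 1.31 (SE 0.18, 95% interval 0.96 to 1.66; DESeq2 adjusted p = 1.09e-10, edgeR adjusted p = 0.0114). Per exon kilobase the mean level went from 319 to 789, and the control level was higher than that of 71.7% of protein-coding genes with a count. Under 16 alternative settings, leaving out each of the 7 libraries in turn included, Cdkn1a passed the threshold every time, with log2 fold changes of 1.18 to 1.41 and adjusted p from 4.1e-15 to 0.0114. An annotated gene on the other strand covers 7.68% of its exon length, and counting by strand is not given in the sources used here.

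The other CDK inhibitor genes had lower KO means. Cdkn1b encodes p27, the inhibitor that holds resting cells out of the cycle, and was the most abundant of the 3 per exon kilobase at 1055 in the controls. Its normalized counts were 4888, 5008, 5044 and 4278 in controls and 4190.0, 4339.8 and 3949 in KO. Its log2 fold change was -0.21 (SE 0.10, 95% interval -0.41 to -0.004), between group means of 4804 ± 357 (SD, n = 4) and 4159.5 ± 197 (SD, n = 3), with a DESeq2 adjusted p of 0.391 and an edgeR adjusted p of 0.445. KO 2 lay above control 4, the lowest control, so the groups overlapped. Cdkn2c, which encodes the CDK4 and CDK6 inhibitor p18, had 286, 182, 260.2 and 244 in controls and 168, 207 and 153 in KO. From 243 ± 44.4 (SD, n = 4) to 176 ± 27.8 (SD, n = 3), the log2 fold change of Cdkn2c was -0.47 (SE 0.26, 95% interval -0.98 to 0.04; DESeq2 adjusted p = 0.502, edgeR adjusted p = 0.589). KO 2 lay above the lowest control here too.

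The RefSeq promoter windows of Cdkn1a, 250 bases before to 50 after each of its 2 annotated starts, are shown because Cdkn1a was the member with the largest change past the threshold. They come from assembly GRCm38.p6 and read 5′ to 3′ on the gene's strand. Capitals in the upstream window mark a pair of CATG cores 6 bases apart, the core letters of a p53 response element, and capitals in the downstream window mark GC boxes, GGGCGG on either strand.
Cdkn1a upstream start, chr17:29090729-29091028, plus strand: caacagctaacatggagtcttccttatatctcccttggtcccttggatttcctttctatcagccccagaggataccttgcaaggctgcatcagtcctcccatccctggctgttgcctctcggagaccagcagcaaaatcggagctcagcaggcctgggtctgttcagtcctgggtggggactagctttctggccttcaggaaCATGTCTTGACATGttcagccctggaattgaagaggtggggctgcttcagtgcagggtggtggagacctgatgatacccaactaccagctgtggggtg
Cdkn1a downstream start, chr17:29093519-29093818, plus strand: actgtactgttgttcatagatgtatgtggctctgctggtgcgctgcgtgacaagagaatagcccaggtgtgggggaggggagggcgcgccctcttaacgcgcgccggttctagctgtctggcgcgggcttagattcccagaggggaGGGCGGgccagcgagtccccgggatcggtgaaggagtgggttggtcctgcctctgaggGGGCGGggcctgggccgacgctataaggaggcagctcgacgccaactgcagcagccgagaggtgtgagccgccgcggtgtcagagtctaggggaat
The CATG pair starts 48 bases before the upstream start, and its letters are CATGTCTTGACATG. The pair occurred on either strand in 1 of the 31 windows found for 28 members, that of Cdkn1a, and in 0.712% of 32851 promoter windows of all genes. This motif was added to the search after the Cdkn1a sequence had been seen, and a match is a description of letters, not of binding.

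A further 12 p53 target genes were read beside Cdkn1a, from a list chosen by name. Of the 12, 1 rose, 0 fell, 3 had a log2 fold change above 0 and 9 below it (5 and 7 when scaled by library totals), with a median of -0.16. Over all genes tested in DESeq2, 2.24% were higher, 2.27% were lower and 51.8% had a log2 fold change above 0. The one that rose was Plk2, a polo-like kinase of G1 and of stress responses, with 2337, 3307, 2843 and 2355 normalized counts in controls and 3805, 4851 and 4578 in KO. The means were 2711 ± 462 (SD, n = 4) and 4411 ± 543 (SD, n = 3), a log2 fold change of 0.70 (SE 0.16, 95% interval 0.39 to 1.01; DESeq2 adjusted p = 0.000562, edgeR adjusted p = 0.0547). It passed with each library left out. Btg2, an antiproliferative gene and the most abundant of the list at 10604.5 per exon kilobase in the controls, had 23482, 33284, 34299 and 25288 in controls and 34243, 43437 and 34278 in KO. Against a control mean of 29088 ± 5497 (SD, n = 4), the KO mean was 37319 ± 5298 (SD, n = 3), and its log2 fold change was 0.36 (SE 0.16, 95% interval 0.04 to 0.68; DESeq2 adjusted p = 0.28, edgeR adjusted p = 0.49). Mdm2, Ccng1, Bax, Phlda3, Zmat3 and the other members of this list stayed short of the threshold.

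**Figure D2:**
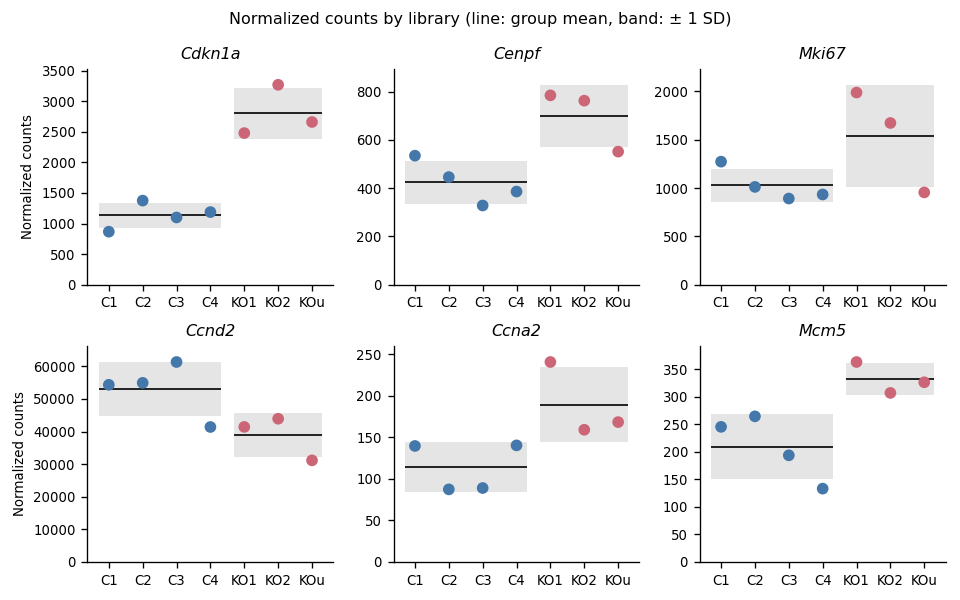
Normalized counts (vertical axes, from 0) of 6 members in each library, controls C1 to C4 in blue and KO1, KO2 and the unnumbered KO library KOu in red, with the group mean as a line and ± 1 SD as a band. Cdkn1a separates the groups widely, whereas for Mki67 the unnumbered KO library, at 955, sits among the controls.

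The D-type cyclin genes Ccnd2 and Ccnd1 were the 2 most abundant members per exon kilobase. Ccnd2, a cyclin that activates CDK4 and CDK6, reached 5631 per exon kilobase in the controls, above 99.3% of protein-coding genes with a count. Its normalized counts were 54321, 54914, 61316 and 41382 in controls and 41407, 43918 and 31149 in KO. Control 4 lay at the level of KO 1 and below KO 2, while the other 3 controls lay above every KO library. Its log2 fold change was -0.45 (SE 0.16, 95% interval -0.77 to -0.13), between group means of 52983 ± 8357 (SD, n = 4) and 38825 ± 6765 (SD, n = 3), with a DESeq2 adjusted p of 0.0954 and an edgeR adjusted p of 0.364. Ccnd2 fell past the threshold without control 4 (log2 fold change -0.55, DESeq2 adjusted p = 0.0016) and without the 2 deepest libraries (-0.42, DESeq2 adjusted p = 0.000312), and over the 16 settings its adjusted p ran from 6.84e-07 to 0.391. Other-strand genes cover 7.87% of its exon length.

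The other 3 cyclin genes had log2 fold changes between 0.03 and 0.17. Ccnd1, at 1107 per exon kilobase in the controls, had 6157, 5522, 5749.6 and 3421 in controls and 6902.5, 6209 and 4421 in KO. From 5213 ± 1223 (SD, n = 4) to 5844 ± 1281 (SD, n = 3), the log2 fold change of Ccnd1 was 0.17 (SE 0.21, 95% interval -0.25 to 0.58; DESeq2 adjusted p = 0.965, edgeR adjusted p = 0.926). Control 4 and the unnumbered KO library were the lowest of their groups, and LTO1 on the other strand covers 23.4% of the exon length of Ccnd1. Ccnd3, at 204 per exon kilobase, had 1705, 1859, 1668 and 1918 in controls and 1672, 1587 and 2293 in KO. The means were 1788 ± 119.9 (SD, n = 4) and 1851 ± 385 (SD, n = 3), a log2 fold change of 0.05 (SE 0.16, 95% interval -0.26 to 0.36; DESeq2 adjusted p = 0.998, edgeR adjusted p = 0.98). An annotated processed pseudogene of Ccnd3 could share its reads. Ccne1, the E-type cyclin that activates CDK2 at the start of S phase, was the scarcest of the 4 at 28.4 per exon kilobase, with 47.7 to 99.8 normalized counts in controls and 68.2 to 90.9 in KO.

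**Figure D3:**
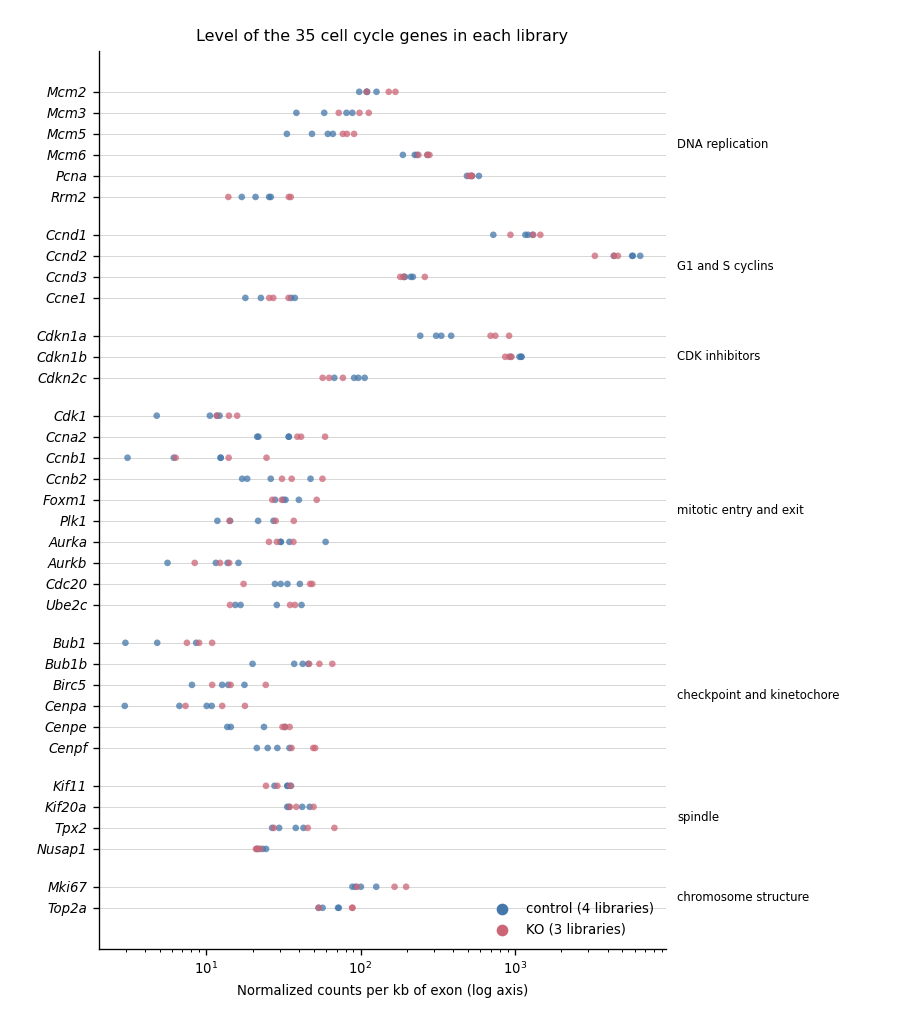
Normalized counts per kilobase of exon (horizontal log axis) of each member in each library, controls in blue and KO in red, grouped by role. Ccnd2, Ccnd1 and Cdkn1b lie highest, with control means of 5631, 1107 and 1055, the control means of the mitotic members run from 4.10 to 102, and Bub1 in control 2, at 0, is not drawn on the log axis.

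None of the 6 replication genes passed the threshold, and their median log2 fold change was 0.34. Pcna, the sliding clamp of DNA polymerase, was the most abundant at 531 per exon kilobase in the controls. It had 1271, 1176, 1407 and 1242 in controls and 1209, 1266 and 1262 in KO, and all KO values lay within the range of the controls. Against a control mean of 1274 ± 97.1 (SD, n = 4), the KO mean was 1245.5 ± 32.0 (SD, n = 3), and its log2 fold change was -0.03 (SE 0.12, 95% interval -0.27 to 0.20; DESeq2 adjusted p = 0.998, edgeR adjusted p = 0.98). Pcna has 2 annotated processed pseudogenes that could share its reads. The 4 subunits of the MCM helicase had higher KO means. Mcm5 was the one whose groups did not overlap, with 245, 264, 194 and 133 in controls and 363, 307 and 326 in KO. Its log2 fold change was 0.67 (SE 0.28, 95% interval 0.12 to 1.22), between group means of 209 ± 58.8 (SD, n = 4) and 332 ± 28.5 (SD, n = 3), with a DESeq2 adjusted p of 0.208 and an edgeR adjusted p of 0.38. Mcm2 had 762, 768, 884 and 682 in controls and 1172, 1061 and 763 in KO, so KO 1 and KO 2 stood above all controls and the unnumbered KO library did not. From 774 ± 83.0 (SD, n = 4) to 999 ± 212 (SD, n = 3), the log2 fold change of Mcm2 was 0.37 (SE 0.19, 95% interval 0.00 to 0.74; DESeq2 adjusted p = 0.411, edgeR adjusted p = 0.482). Mcm2 passed the threshold when the 2 deepest libraries were left out (DESeq2 adjusted p = 0.03) and Mcm5 when a model term set those 2 libraries apart (DESeq2 adjusted p = 0.0486); over the 16 settings the adjusted p ran from 0.03 to 1 for Mcm2 and from 0.0486 to 1 for Mcm5. Mcm3 and Mcm6 had log2 fold changes of 0.51 (SE 0.32) and 0.20 (SE 0.16). Rrm2, a subunit of ribonucleotide reductase, was near 22.4 per exon kilobase in the controls and had its lowest value of all, 38.5 normalized counts, in the unnumbered KO library.

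The 22 mitotic members were scarce. Their control means per exon kilobase ran from 4.10 for Bub1 to 102 for Mki67, with a median of 27.4. Summed over the 22, the level per exon kilobase was 767, 597, 586 and 602 in the controls and 980, 896 and 609 in the KO libraries. KO 1 and KO 2 stood above every control, and the unnumbered KO library stood between control 4 and control 1. Ccnd2 alone was 7.30 to 11.1 times this sum in the controls and 4.49 to 5.44 times in KO. Per exon kilobase Gcg was 6478 to 9192 times the sum in the controls and 2276 to 3120 times in KO, where Gcg itself fell. These ratios describe RNA, and none of them gives a number of dividing cells.

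Of the 22, 18 had a log2 fold change above 0 and 4 below it (20 and 2 when scaled by library totals), with a median of 0.47, and 1 passed the threshold. The high values lay mostly in KO 1 and KO 2: KO 1 held the highest of the 7 values for 11 of the 22 genes and KO 2 for 6, while the unnumbered KO library held none and was the lowest for 4. How often each library was the highest over all genes was not counted, so these numbers have no background beside them. The median log2 fold change over all 35 members was 0.16 when KO 1 or KO 2 was left out and 0.53 when the unnumbered KO library was. Without Cenpf and Mki67, the other 20 mitotic members summed to 2216 to 2873 normalized counts in the controls and to 3474, 3185 and 2325 in KO.

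Cenpf encodes a large kinetochore-associated protein made in G2 and mitosis. Cenpf (ENSMUSG00000026605) lies at chr1:189640606-189688086 on the minus strand of GRCm38, per GENCODE M21. It had 534, 446, 328 and 386 normalized counts in controls and 784, 762 and 551 in KO, with the lowest KO library 16.8 counts above the highest control. The means were 424 ± 88.1 (SD, n = 4) and 699 ± 129 (SD, n = 3), a log2 fold change of 0.72 (SE 0.23, 95% interval 0.28 to 1.16; DESeq2 adjusted p = 0.0334, edgeR adjusted p = 0.184). The call was lost without KO 1 (DESeq2 adjusted p = 0.379), without KO 2 (0.265), without control 2 (0.0691) and without control 3 (0.169), and it held at 0.00649 without the 2 deepest libraries. With a replicate block on 4 libraries the adjusted p was 0.122 in DESeq2. Over the 16 settings the log2 fold change stayed between 0.62 and 0.87 and the adjusted p ran from 0.00546 to 0.379.

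Mki67 encodes Ki-67, the coat protein of mitotic chromosomes and the usual marker of cycling cells. Mki67 (ENSMUSG00000031004) lies at chr7:135689784-135716361 on the minus strand of GRCm38, per GENCODE M21. It had 1273, 1012, 892 and 934 in controls and 1988, 1673 and 955 in KO, so KO 1 and KO 2 were the highest of the 7 libraries and the unnumbered KO library lay below 2 of the controls. Against a control mean of 1028 ± 171 (SD, n = 4), the KO mean was 1539 ± 529.5 (SD, n = 3), and its log2 fold change was 0.58 (SE 0.24, 95% interval 0.11 to 1.05; DESeq2 adjusted p = 0.201, edgeR adjusted p = 0.418). Per exon kilobase the mean went from 102 to 153. Without the 2 deepest libraries the log2 fold change was 0.79 (DESeq2 adjusted p = 0.000378) and without KO 1 it was 0.35 (DESeq2 adjusted p = 1), and over the 16 settings the adjusted p ran from 0.000378 to 1. Top2a, the topoisomerase that disentangles chromosomes, had 644, 512, 481 and 652 in controls and 795, 800.4 and 484 in KO. Its log2 fold change was 0.27 (SE 0.23, 95% interval -0.17 to 0.72), between group means of 572 ± 88.5 (SD, n = 4) and 693 ± 181 (SD, n = 3), with a DESeq2 adjusted p of 0.826 and an edgeR adjusted p of 0.808. As for Mki67, KO 1 and KO 2 were the 2 highest values, but the unnumbered KO library and control 3 were level.

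The promoter windows of Cenpf and Mki67 are shown because both genes had their highest values in KO 1 and KO 2 and both windows hold the pair of elements known from genes of late cell cycle phases. Capitals mark CCAAT boxes (CCAAT, or ATTGG on the other strand), CHR elements (cell cycle genes homology region, TTTGAA) and GC boxes (GGGCGG). Both windows are from GRCm38.p6, RefSeq, 5′ to 3′ on the gene's strand.
Cenpf, chr1:189688037-189688336, minus strand: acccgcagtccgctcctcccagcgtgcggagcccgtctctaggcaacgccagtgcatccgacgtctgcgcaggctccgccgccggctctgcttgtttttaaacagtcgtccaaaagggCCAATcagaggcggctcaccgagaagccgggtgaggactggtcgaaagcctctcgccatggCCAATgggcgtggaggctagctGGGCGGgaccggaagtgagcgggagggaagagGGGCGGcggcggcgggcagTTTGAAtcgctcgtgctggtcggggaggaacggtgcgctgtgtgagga
Mki67, chr7:135716330-135716629, minus strand: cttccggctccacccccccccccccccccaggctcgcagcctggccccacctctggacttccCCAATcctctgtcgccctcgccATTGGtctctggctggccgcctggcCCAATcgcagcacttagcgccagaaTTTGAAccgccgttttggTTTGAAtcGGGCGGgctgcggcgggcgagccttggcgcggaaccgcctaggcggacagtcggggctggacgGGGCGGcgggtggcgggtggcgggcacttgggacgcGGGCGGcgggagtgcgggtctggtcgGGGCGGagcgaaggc
Windows were found for 17 starts of the 22 mitotic members. TTTGAA occurred on either strand in 12 of the 17 (70.6%) and in 17.9% of the windows of all genes, and CCAAT in 15 of the 17 (88.2%) and in 37.4% of all. GGGCGG occurred in 14 of the 17 (82.4%) and in 35.7% of all windows, or 46.2% of the 21262 windows of protein-coding genes. An E2F site, spelled TTTCCCGC or TTTCGCGC or TTTGCCGC or TTTGGCGC on either strand, occurred in 1 of the 17, that of Cdk1, in 3 of the 6 replication windows, those of Mcm3, Mcm5 and Mcm6, and in 2.26% of all. These are counts of letters, and the windows of Aurkb, Ccna2, Ccnd1, Ccnd2, Foxm1, Kif20a and Tpx2 were not among those used here.

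Among the 10 genes of mitotic entry and exit none passed the threshold. Ccna2, which drives S phase and entry into mitosis, had 139.5, 87.3, 88.9 and 140.2 in controls and 240.5, 159 and 168 in KO, without overlap. From 114 ± 29.9 (SD, n = 4) to 189 ± 44.6 (SD, n = 3), the log2 fold change of Ccna2 was 0.73 (SE 0.33, 95% interval 0.08 to 1.37; DESeq2 adjusted p = 0.284, edgeR adjusted p = 0.451). Ccnb1 and Ccnb2, the cyclins of CDK1 in mitosis, had log2 fold changes of 0.82 (SE 0.67) and 0.59 (SE 0.54), and Cdk1 itself 0.49 (SE 0.47). Their counts were low, with 13.01 to 72.6 normalized counts in the controls over these 3 genes, and annotated pseudogenes of Ccnb1 and Ccnb2 could share their reads. Foxm1, the transcription factor of late cell cycle genes, had 161 to 229 in controls and 299, 178 and 154 in KO, so KO 1 alone was high. The kinase gene Plk1 and the anaphase genes Cdc20 and Ube2c had log2 fold changes of 0.48, 0.19 and 0.18, each with an SE of at least 0.48. Tnnc2 on the other strand covers 22.8% of the exon length of Ube2c. Aurka, which encodes a kinase of the spindle poles and was the most abundant of the 10 at 38.7 per exon kilobase, had 77.2, 76.7, 87.6 and 150.3 in controls and 64.5, 93.0 and 72.6 in KO. The means were 97.9 ± 35.3 (SD, n = 4) and 76.7 ± 14.6 (SD, n = 3), a log2 fold change of -0.36 (SE 0.40, 95% interval -1.14 to 0.42; DESeq2 adjusted p = 0.935, edgeR adjusted p = 0.886). Control 4 was by far its highest library. Aurkb, the kinase gene of the chromosomal passenger complex, had a log2 fold change of -0.02 (SE 0.58).

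All 6 checkpoint and kinetochore genes had a log2 fold change above 0 under each of the 3 scalings tried, with a median of 0.68, and Cenpf was the one that rose. Bub1b, which encodes the spindle checkpoint protein BubR1, was the most abundant at 36.3 per exon kilobase, with 159, 196, 180.4 and 85.3 in controls and 281, 231 and 198 in KO. Against a control mean of 155 ± 48.9 (SD, n = 4), the KO mean was 237 ± 41.3 (SD, n = 3), and its log2 fold change was 0.62 (SE 0.34, 95% interval -0.04 to 1.27; DESeq2 adjusted p = 0.483, edgeR adjusted p = 0.583). The groups did not overlap, by 2.7 counts between control 2 and the unnumbered KO library. Cenpe, a kinetochore motor, had 279, 118, 204 and 124 in controls and 299, 279 and 269 in KO, with control 1 inside the KO range. Cenpa, the centromeric histone H3 variant, and Birc5, which encodes survivin, had log2 fold changes of 0.73 (SE 0.57) and 0.34 (SE 0.51). Bub1, a checkpoint kinase, had 37.4, 0, 20.9 and 13.01 in controls and 39.1, 47.5 and 32.6 in KO. Its 0 counts in control 2 allow up to 3.54 normalized counts if counts arise 1 at a time. Most low counts were even, so the true limit may be higher.

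None of the 4 spindle genes passed the threshold, and 2 of the 4 had a log2 fold change above 0, or 3 of the 4 when scaled by library totals. Kif20a, a motor of the central spindle and the most abundant of the 4 at 39.1 per exon kilobase, had 203, 182, 149 and 145 in controls and 215, 166 and 151 in KO. Its log2 fold change was 0.07 (SE 0.27, 95% interval -0.47 to 0.60), between group means of 169.8 ± 27.6 (SD, n = 4) and 178 ± 33.4 (SD, n = 3), with a DESeq2 adjusted p of 0.998 and an edgeR adjusted p of 0.987. Cdc23 on the other strand covers 29.3% of its exon length. Kif11, the motor that pushes the spindle poles apart, and Nusap1 had log2 fold changes of -0.15 (SE 0.23) and -0.07 (SE 0.30). Nusap1 varied little between libraries, at 86.3 to 99.1 in controls and 85.2 to 90.9 in KO. Tpx2, a spindle assembly factor that activates Aurora A, had 199.7, 125, 178 and 139 in controls and 317, 213 and 128 in KO, high in KO 1 and low in the unnumbered KO library.

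**Figure D4:**
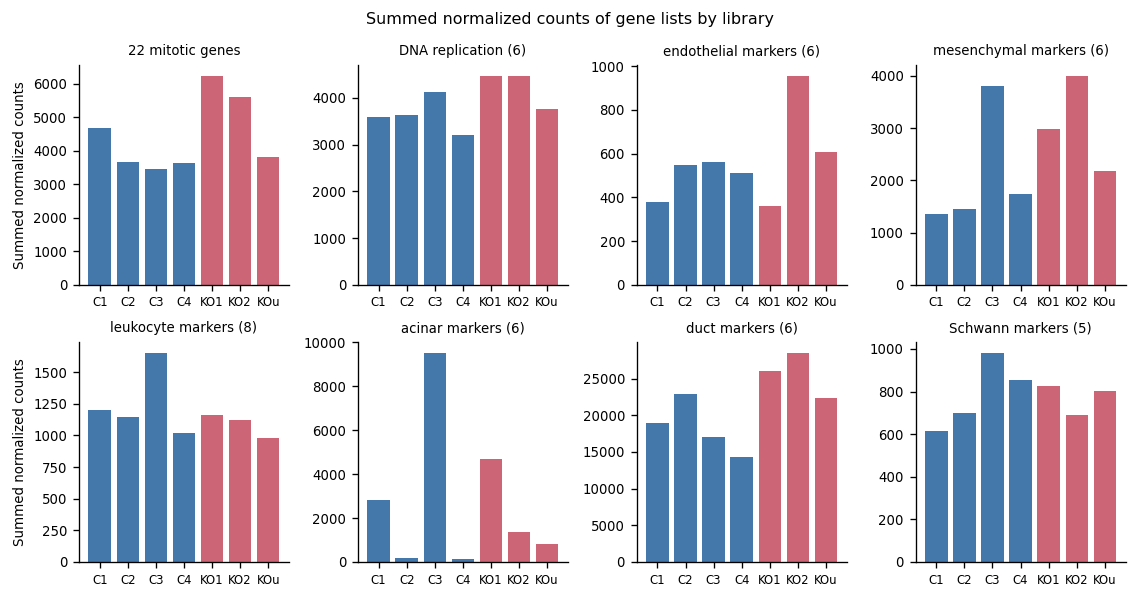
Summed normalized counts (vertical axes, from 0) of the 22 mitotic members, the 6 replication genes and 6 marker lists in each library, controls in blue and KO in red. The mitotic sum is highest in KO1 (6246) and KO2 (5620.4), the mesenchymal sum in KO2 (4003), C3 (3796.5) and KO1 (2975), and the acinar sum in C3 (9528).

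Markers of other cell types were read beside the mitotic sum, since the sort could pass other cells. Summed mesenchymal markers ran from 1346 to 3796.5 normalized counts in controls and from 2172 to 4003 in KO, with 0 past the threshold of the 4 of 6 genes that had an adjusted p, and their defining marker Pdgfra, which had none, had 0 to 2.89 in controls and 0, 33.1 and 7.41 in KO. Endothelial markers summed to 380.1 to 563.5 in controls and 361 to 956 in KO, with KO 1 the lowest and KO 2 the highest library and 0 of the 5 genes with an adjusted p past the threshold. Leukocyte markers summed to 1018 to 1652.5 in controls and 980.1 to 1163 in KO, and Cd3e was at 0 in 5 of the 7 libraries. C1qa, the most abundant leukocyte marker at 808 to 1305 in controls and 415 to 655 in KO, fell, while 6 of the 8 had a log2 fold change above 0. C1qa made up most of the leukocyte sum in the controls, with a mean of 976 of 1253. There C1qb, Ptprc and Lyz2 were at 0 to 28.8, so the sum is largely that of C1qa. Cd74 had 10.1 to 123 in controls and 247 to 287 in KO, without overlap (DESeq2 adjusted p = 0.139), and 4 of the 8 had no adjusted p. Acinar markers summed to 134 to 9528 in controls and to 809.7 to 4710.2 in KO (0 of the 5 with an adjusted p past the threshold), and Schwann cell markers to 616 to 982 and 689.9 to 825 (0 of 5). Duct markers summed to 14293.5 to 22900.3 in controls and 22315 to 28527 in KO, where Epcam rose. Krt7 and Epcam, with control means of 8836 and 9055, made up most of this sum. Sox9 had 94.1 to 586 in controls and 682 to 1039 in KO, and Cftr 2.62 to 37.7 and 60.6 to 72.3. Both were without overlap, higher in KO, as 6.07% of all genes were (DESeq2 adjusted p = 0.169 and 0.166), while Krt19, Krt7, Epcam and Muc1 overlapped. Of the other islet cells' markers, 1 of 8 for beta cells, 1 of 4 for delta cells and both for gamma cells, Ppy and Pyy, rose in KO. Of all genes tested in DESeq2, 2.24% were higher. The gamma sum was 308242 to 579053 in controls and 888245 to 1135028 in KO, and the beta and delta sums were highest in KO 1, the library with the highest mitotic sum. Gcg was at 2837929.6 to 4098502 normalized counts in KO, below all controls, so Gcg and the gamma sum separated the groups without overlap, as Cdkn1a did. The part of any of these cells in the members' values was not tested.

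Depth split the libraries across the groups, with 1 of the 2 deepest in each. Without them, DESeq2 called 4 members higher, Cdkn1a, Cenpf, Mki67 and Mcm2, where 2.95% of all genes tested were higher, and 1 lower, Ccnd2, where 2.58% were lower. With a model term that set these 2 libraries apart, an alternative added after the data were seen, Cdkn1a, Cenpf, Mki67 and Mcm5 were called higher (3.75% of all genes) and Ccnd2 lower (3.59%). The 2 deepest libraries by themselves, 1 a group, allow no test. Control 4 stood apart in more than depth. It had 31024 genes with a count, against 23150 to 25873 in the other libraries, where the unnumbered KO library had 25873. Of replication genes outside the members, Tk1 had 453 normalized counts in control 4 and 14.4 to 70.4 in the other libraries. Fen1 had 28.2 in control 4 and 358.5 to 494 in the others. The cause was not tested.

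**Figure D5:**
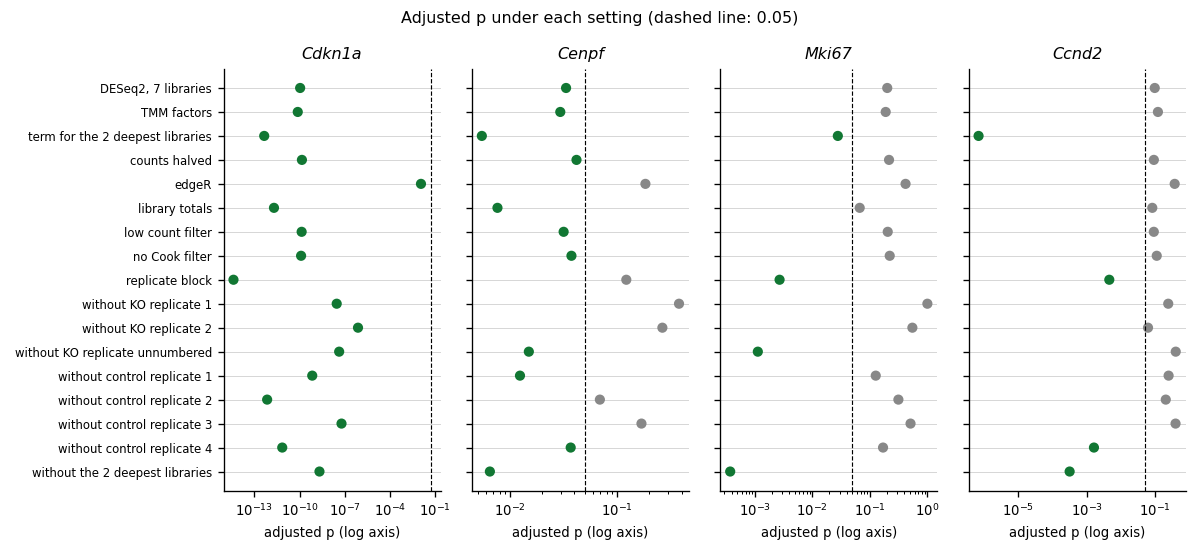
DESeq2 adjusted p (horizontal log axes; edgeR in its own line) of 4 members under the 7-library fit and 16 alternatives, green where under 0.05 (dashed line). Cdkn1a lies left of the line in every line, and Cenpf, Mki67 and Ccnd2 cross it as libraries are left out.

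Beyond the 35 members, 97 further genes of the cell cycle were read from lists chosen by name, the 12 p53 targets included. In DESeq2 2 of them rose, Myc and Plk2, and 1 fell, Spc25, and edgeR called Spc25 alone. Of all genes tested, 2.24% were higher and 2.27% lower in DESeq2, and 0.404% and 0.647% in edgeR, so the counts over the 97 lay near the background. Myc, the growth-promoting transcription factor, had 522, 692, 374 and 319 in controls and 908, 966 and 768 in KO, without overlap. From 477 ± 167 (SD, n = 4) to 881 ± 102 (SD, n = 3), the log2 fold change of Myc was 0.89 (SE 0.27, 95% interval 0.37 to 1.41; DESeq2 adjusted p = 0.0231, edgeR adjusted p = 0.182). The call for Myc was lost in 4 of the 7 fits that left out a library, with adjusted p from 0.000138 to 0.202 over the settings. Spc25, a subunit of the NDC80 kinetochore complex, had 3919, 2964, 3751 and 3397 in controls and 2237, 1788 and 2104 in KO. The means were 3508 ± 423 (SD, n = 4) and 2043 ± 231 (SD, n = 3), a log2 fold change of -0.78 (SE 0.14, 95% interval -1.05 to -0.50; DESeq2 adjusted p = 3.92e-06, edgeR adjusted p = 0.0294). It passed under all 16 settings. Its level was far from those of its complex: per exon kilobase it was 1100.3 in the controls, while its partners Spc24, Ndc80 and Nuf2 were at 49.1, 13.3 and 9.39, with log2 fold changes of -0.27, 0.33 and 0.08 short of the threshold.

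The rest of these 97 genes stayed short of the threshold. Of 24 further replication genes 0 were called, 16 had a log2 fold change above 0 (20 when scaled by library totals), and the most abundant, the helicase gene Mcm7 (241 per exon kilobase in the controls), had 962, 1179.5, 1288 and 839.8 in controls and 1023, 1080.3 and 771 in KO. Against a control mean of 1067 ± 203 (SD, n = 4), the KO mean was 958 ± 164 (SD, n = 3), and its log2 fold change was -0.15 (SE 0.20, 95% interval -0.54 to 0.23; DESeq2 adjusted p = 0.965, edgeR adjusted p = 0.91). Of the 36 further mitosis genes 29 lay above 0 with a median of 0.21, and 1, Spc25, was called. Without Spc25 the other 35 summed to 7827.5 to 10117 normalized counts in controls and 8168 to 9647 in KO, so KO 1 and KO 2 did not exceed control 1 there. Smc4 and Hmgb2 weighed most in this sum, with control means of 2579 and 1309 in a mean sum of 8851. Their KO means were 2320 and 1397, so the sum says little about the scarcer genes. Of 20 further G1 genes 1, Myc, was called, and E2f4, a repressor E2F and the most abundant of them at 892 per exon kilobase, had 2521, 2183, 2038 and 2005 in controls and 2179.6, 1981 and 1987 in KO. Its log2 fold change was -0.09 (SE 0.12, 95% interval -0.34 to 0.15), between group means of 2187 ± 236 (SD, n = 4) and 2049 ± 113 (SD, n = 3), with a DESeq2 adjusted p of 0.968 and an edgeR adjusted p of 0.907. Of 5 further CDK inhibitors 0 were called, and Cdkn2d, which encodes the INK4 protein p19, the most abundant at 178 per exon kilobase, had 308, 288, 279.8 and 244 in controls and 221, 256 and 289.7 in KO. From 279.8 ± 26.4 (SD, n = 4) to 256 ± 34.3 (SD, n = 3), the log2 fold change of Cdkn2d was -0.13 (SE 0.21, 95% interval -0.54 to 0.29; DESeq2 adjusted p = 0.984, edgeR adjusted p = 0.937).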

How the data were processed

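RNA from tdTomato-sorted cells (Qiagen RNeasy Micro kit) was made into strand-specific libraries with a Takara SMARTer Total RNA-Seq kit for low input, per the labels' protocols. The deposited table holds raw counts of 55536 genes in 7 libraries, and it is the one file used. FastQC, STAR, featureCounts, DESeq2 and the mm10 build are named, per the submitters' processing notes; the counting strand is not given in the sources used here. Symbols, positions and exon lengths came from GENCODE M21 on GRCm38, which matched all 55536 identifiers. The series' design text states DESeq2 without batch correction, so this was the main fit.

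All genes with at least 1 count were fitted in DESeq2 1.42.0 under R 4.3.3 (median-of-ratios size factors, Wald test, default independent filtering and Cook's filter), with Benjamini-Hochberg adjustment over all genes tested and a threshold of 0.05. edgeR 4.0.16 (quasi-likelihood test, genes with enough counts) was the first alternative. The scripts were tested on simulated data. Intervals are the log2 fold change ± 1.96 SE. The floor behind a 0 is 3 counts in that library, for counting error only. It takes counts as arising 1 at a time, and may be too low where most low counts are even. The members and gene lists were chosen with earlier results of these data known. Named in full were members past a threshold, the most abundant member of each role per exon kilobase, Mki67, Top2a, the D-type cyclins and the CDK inhibitors, and of the other lists each gene past the DESeq2 threshold and the most abundant one; other members are given by values or ranges, and Cenpe, Ccna2, Mcm2, Mcm5, Bub1 and Tpx2 were chosen for full library values after their values were seen. A KO column whose number matched no KO title entered as an unnumbered KO library. Promoter windows (250 bases before to 50 after a start) were RefSeq's on GRCm38.p6, searched on both strands for exact letters.

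Alternatives were edgeR, TMM factors, library totals as scaling, a minimum of 10 counts in 3 libraries, no Cook's filter, a replicate block, leaving out each library, leaving out the 2 deepest and, added after the data were seen, a term for the 2 deepest libraries and counts halved.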

Additional observations from a re-analysis of the deposited data

Results flagged for a closer look

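The control samples were searched for single libraries far from the other 3, with Dixon's ratio of the gap to the range at its 95% critical value; 43 sets of control values were tested, and chance flags about 1 in 20. Aurka stood at 150.3 normalized counts in control 4, the highest of the 4 controls, while the other controls lay between 76.7 and 87.6 and the KO libraries between 64.5 and 93.0. The summed level of the 22 mitotic members per exon kilobase stood at 767.2 in control 1, where the other controls lay between 586 and 602. Without control 1 the members' median log2 fold change was 0.33, and Cenpf kept an adjusted p of 0.0124 in DESeq2, within a range of 0.00546 to 0.379 over its alternatives.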

How the results depend on the processing

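The comparison rests on 3 against 4 libraries, and most mitotic members had low counts. Halving all counts left the same 2 members called. Cdkn1a, among the members, kept its direction and its call under all 16 alternatives. The number of members called higher, 2, was 1 in edgeR, 4 without the 2 deepest libraries and 4 with a term for them, and 1 to 3 with each library left out; the number called lower, 0, was 1 in both of those 2-deepest fits, 1 with the replicate block and 0 to 1 with each library left out. Over all genes, the 394 called higher became 78 in edgeR, 684 with library totals, 705 with the term for the 2 deepest libraries and 188 to 496 with each library left out. The 398 called lower became 125 in edgeR, 674 with that term, 229 with the replicate block and 242 to 419 with each library left out. Of the 97 other cell cycle genes, the 2 called higher became 0 in edgeR, 5 with library totals and 1 to 4 with each library left out, and the 1 called lower became 2 with that term, 2 with the low count filter and 1 to 2 with each library left out. The cause of these changes was not tested. At an unadjusted p under 0.05, DESeq2 gave 15 of the 97 (12.2% of all genes tested) and edgeR 12 (10.5% of all genes tested).

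The members' median log2 fold change stayed within 0.16 to 0.53 under all 16. Directions turned in 26 values of 12 genes, none with a log2 fold change beyond 0.36 in size over all 7 libraries. Scaling by library totals gave 0.071 for Pcna, 0.083 for Aurkb, 0.027 for Nusap1 and 0.006 for E2f4. Leaving out the 2 deepest libraries gave -0.10 for Ccnd3 and -0.06 for Ccne1. Leaving out each library gave -0.068 to 0.017 for Pcna, -0.14 to 0.15 for Ccnd3, -0.14 to 0.20 for Ccne1, -0.20 to 0.33 for Foxm1, -0.25 to 0.17 for Aurkb, -0.038 to 0.54 for Cdc20, -0.059 to 0.51 for Ube2c, -0.041 to 0.57 for Birc5 and -0.10 to 0.17 for Kif20a.

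Replicate numbers 1 and 2 occur in the titles of both groups, and nothing says that they pair the samples. The columns of control 4 and the unnumbered KO library both carry the number 4, and the replicate block left these libraries out. The deviations from the group means correlated at 0.23 for number 1 and 0.30 for number 2, but KO 2 correlated more with control 3, at 0.41. The largest correlation, 0.48, was between control 4 and the unnumbered KO library. Whether shared numbers mark pairs was not tested. A replicate block on the 4 libraries numbered 1 and 2 called 580 genes and 3 members, against 622 and 5 for the same libraries without it. The calls lost were Cenpf (adjusted p = 0.122 in DESeq2) and Mcm2. With the replicate block the log2 fold change was 0.015 for Pcna, -0.13 for Ccnd3, -0.26 for Ccne1, 0.009 for Aurka and -0.023 for Kif20a.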
